A study of Mus musculus with 12 samples.

Results

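Mouse bone marrow derived macrophages labelled as Piezo1 knockout were compared with wild-type macrophages while both were at rest, without fungus. The comparison took the 6 libraries whose treatment label is PBS, 3 of Piezo1 KO and 3 of WT genotype, out of 12 libraries in the series, and the 10972 genes of 25230 that reached a TPM of 1 (a level corrected for gene length and library size) in at least 3 of these 6. The wild-type group was WT BMDMs with PBS. The knockout group was Piezo1 KO BMDMs, labelled PBS for treatment, but the titles of these 3 libraries name DMSO, and the labels do not settle which vehicle these cells received. A vehicle that differed from that of the wild type and the genotype cannot be told apart in this comparison. All cells were grown from marrow with M-CSF. How the gene was disrupted, any Cre driver, the sex and age of the mice, and whether the 3 libraries of a group came from separate mice are not stated in the labels, so the p-values below reflect only how much these libraries vary, which may be technical. The remaining 6 libraries, the same genotypes with the fungus Candida albicans, served only for comparison.

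Piezo1 is a large ion channel of the plasma membrane that opens when the membrane is stretched and lets calcium into the cell. Calcium entry acts through calcineurin and NFAT factors, and the force a cell feels is also passed on through integrins, the actin skeleton and caveolae, which are small membrane pits built by caveolins. In macrophages the channel is studied for its part in sensing the stiffness of tissue and the touch of microbes. The question of this comparison was which genes differ between the genotypes before any fungus is met.

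Levels are given as rescaled TPM, the deposited TPM multiplied by 1 median-ratio factor per library, and differences as log2 fold changes of knockout over wild type on the log2(level + 1) scale, on which the change of a low gene appears smaller than it is. A gene is said to have risen or fallen where its adjusted p (limma, two-sided, Benjamini-Hochberg over all 10972 genes) was under 0.05. Reads in genes ranged from 16400119 to 25741091 over the 6 libraries. The macrophage markers summed to between 6541 and 6649 in wild type and between 7137 and 7218 in the knockout, with all 8 present. Only 2 of the 8 rose (Cd68 and Cd14) and 4 fell (Adgre1, Itgam, Csf1r and Mertk), against 15.3% and 14.5% of all tested genes. Neutrophil markers summed to 2.08 to 2.62 in wild type and 4.22 to 5.69 in the knockout, with 3 of 9 markers at 0 in all 6 libraries. Most of that sum was S100a8 (mean 1.95 in wild type and 4.57 in the knockout), the 1 tested member. Osteoclast markers summed to 130 to 135 and 161 to 164, nearly all from Ctsk (56.2 and 63.4) and Acp5 (76.6 and 99.3). Megakaryocyte markers summed to 71.1 to 76.8 and 71.5 to 71.7. Nearly all of this was Pf4 (73.0 and 71.1), and 1 of 4 was at 0 in all 6. B cell, dendritic cell, monocyte, T and NK cell, mast cell, erythroid and stromal markers each summed to under 5 in every library. Wild-type ranges, then the lower knockout ranges, were 2.69 to 3.94 and 1.48 to 1.87 for B cells. For dendritic cells they were 0.78 to 1.315 and 0.23 to 0.42, for monocytes 1.61 to 2.18 and 0.55 to 1.14. For mast cells they were 1.57 to 1.97 and 1.03 to 1.13, for stromal cells 4.25 to 4.98 and 2.74 to 3.04. The T and NK cell and erythroid ranges overlapped. The part of these cell types in the results was not tested. In bulk RNA, fewer cells of a type and less RNA per cell cannot be told apart. Xist was at most 0.0115, and the Y-linked Ddx3y lay between 27.5 and 35.5, in the 6 libraries, so both genotypes had a male pattern.

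Piezo1 RNA was lower in the knockout but not absent. The 3 wild-type libraries held 123, 126 and 133 rescaled TPM and the 3 knockout libraries 66.9, 63.7 and 68.2. The groups did not overlap, and the knockout mean was 52.1% of the wild-type mean (log2 fold change -0.93, SE 0.04, adjusted p = 4e-06). With C. albicans the value was -1.003 (adjusted p = 3.4e-05). The value is a sum over the whole gene on chromosome 8, at 122481698 to 122551329 of GRCm38, so it does not show which exons were read or whether protein was made. Of 33 tested genes within 1 Mb on either side, 6 rose and 5 fell, with a median of 0.05. Of all tested genes 15.3% rose and 14.5% fell, and 1.81% fell by at least 0.5. Zfp469 (4.82 ± 0.395 against 2.86 ± 0.384, SD, n = 3, log2 fold change -0.59) was the 1 neighbour past 0.5 in size, named after its values were seen, and its adjusted p went from 0.00445 to 0.0576 once the trend described below was removed.

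The genes of the 2 mouse lysozymes moved apart. Lyz2 encodes the lysozyme of macrophages, an enzyme that cuts the bacterial cell wall, and was among the most abundant transcripts. It held 18831, 18545 and 18504 rescaled TPM in wild type and 9137, 9475 and 9044 in the knockout. The libraries within a group lay close together, and the knockout mean was 49.5% of wild type (log2 fold change -1.01, SE 0.02, adjusted p = 7e-08). Lyz1, the lysozyme of Paneth cells in the gut, lies next to it and stood at 9.05, 9.09 and 11.9 in wild type and 31.2, 34.2 and 31.3 in the knockout (1.601, SE 0.10, adjusted p = 2.1e-05), the largest of the named rises. Both differences were present with C. albicans, at -0.72 for Lyz2 (adjusted p = 8.9e-05) and 1.51 for Lyz1 (adjusted p = 0.0002). Of the 13 tested genes within 1 Mb of Lyz2, 4 rose and 1 fell, against 15.3% and 14.5% of all tested genes. Only Lyz1 and Rab3ip (2.23 ± 0.0101 against 3.73 ± 0.165, SD, n = 3) passed with a log2 change of at least 0.5. Such a change was seen in 1.11% of all genes as a rise and in 1.81% as a fall. As background, Lyz2 is the locus that carries Cre in LysM-Cre mice. Whether these mice carry it is not stated in the labels, and its part in the Lyz2 difference was not tested.

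The coding regions of both lysozyme genes are shown because they are so alike that reads can be assigned to the wrong one. Both lie on the minus strand of chromosome 10 (GENCODE M21, GRCm38), Lyz1 at chr10:117288586-117292838 and Lyz2 at chr10:117278124-117282242. Each has 444 coding bases without the stop codon, 22 of them differ, the identity is 95% and the longest identical run is 118 bases. The first 120 coding bases follow, 5′ to 3′, with the 11 positions that differ in capitals.
Lyz1: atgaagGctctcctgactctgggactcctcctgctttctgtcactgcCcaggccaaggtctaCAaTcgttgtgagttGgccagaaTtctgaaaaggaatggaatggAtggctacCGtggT
Lyz2: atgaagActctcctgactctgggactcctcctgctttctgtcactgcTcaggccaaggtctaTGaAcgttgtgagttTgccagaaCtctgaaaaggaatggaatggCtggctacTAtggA
How reads that match both were counted is not stated in the labels, so the level of Lyz1, far below that of Lyz2, is uncertain. The direction of Lyz1 is opposite to that of Lyz2, and the part of shared reads in either value was not tested.

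**Figure D1:**
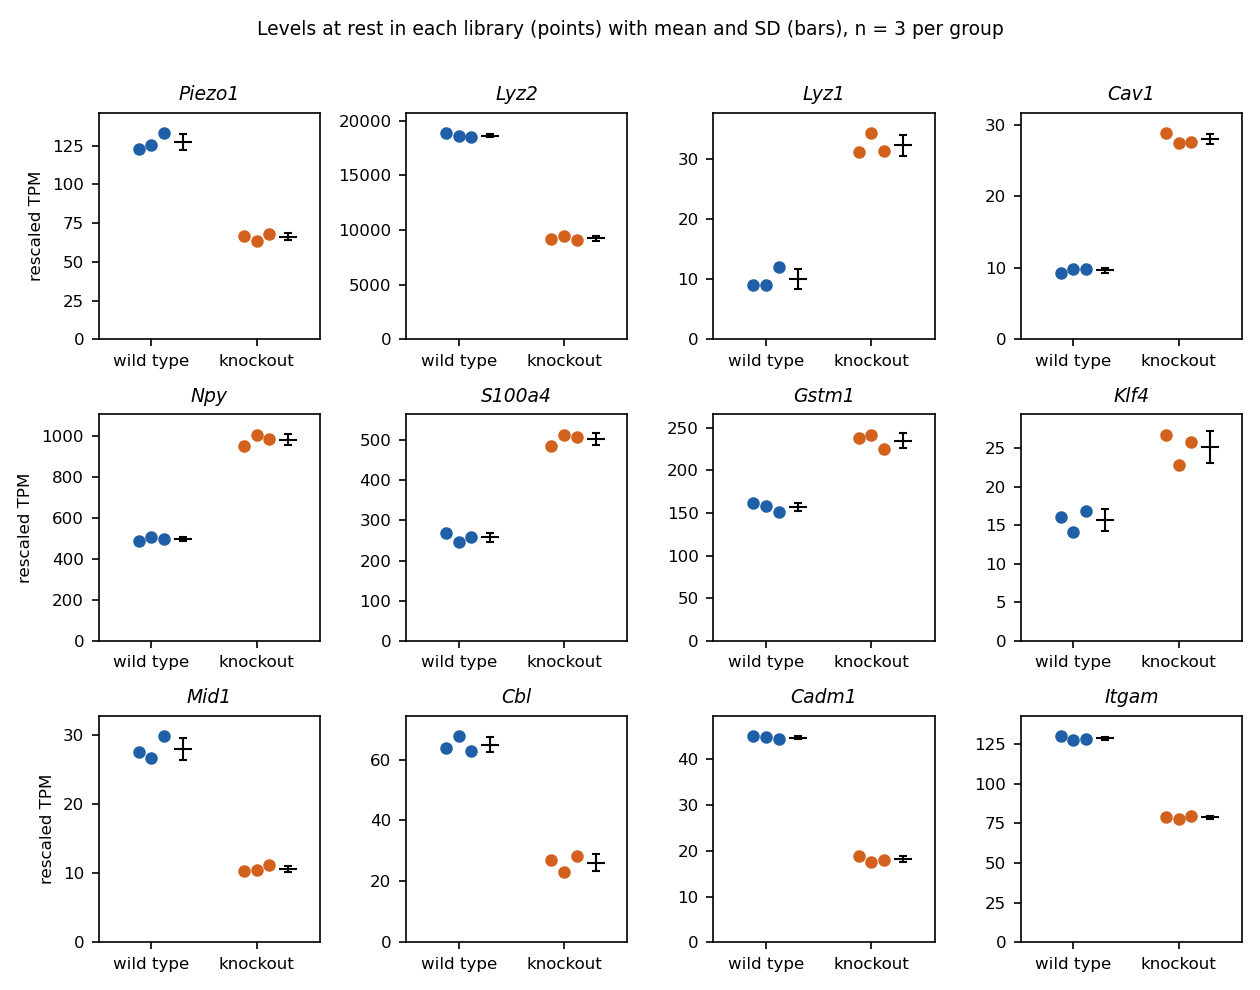
Rescaled TPM (vertical axes, from 0) of 12 genes in the 3 wild-type and 3 knockout libraries at rest; points are libraries and the bar beside them is the mean with its SD. Knockout libraries sit lower for Piezo1, Lyz2, Mid1, Cbl, Cadm1 and Itgam, and higher for Lyz1, Cav1, Npy, S100a4, Gstm1 and Klf4. None of the 12 overlaps, which the naming rule required of the largest rises and falls, and 44.2% of all tested genes do not overlap.

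Differences at rest were many and mostly small. Of the 10972 tested genes 3261 (29.7%) passed, 1675 higher (15.3%) and 1586 lower (14.5%) in the knockout. Only 41 of them (0.374%) differed at least 2-fold, 15 higher and 26 lower, while 122 rose (1.11%) and 199 fell (1.81%) by at least 0.5 on the log2 scale. The values of the 3 wild-type and the 3 knockout libraries did not overlap in 4852 genes (44.2%). The balance of directions depended on the scaling. With the TPM as deposited 762 genes were higher (6.94%) and 2961 lower (27%), so that 20.5% of the calls were rises against 51.4% with rescaled TPM, and the median of all genes was -0.08 in place of 0.01. With upper-quartile factors 1459 were higher (13.3%) and 1757 lower (16%). A rise or fall of a whole list is therefore given relative to the median gene.

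Gene length moved with the result more than any other measured property. Across the 10972 genes, which are not independent replicates, log2 fold change and length had a Spearman correlation of -0.49. With the genes in 4 equal bins by length, the shortest bin (median length 1245 bases) had 976 higher and 109 lower genes, with a median of 0.14. The longest bin (median 6354 bases) had 55 higher and 926 lower, with a median of -0.13. Each of the 3 knockout libraries lay on the same side, with the longest decile of genes below their mean over the 6 libraries by 0.08 to 0.13 and the 3 wild-type libraries above it by 0.07 to 0.12. The correlation was present among genes of like level, at -0.24, -0.58 and -0.65 in the lowest, middle and highest of 3 equal groups by level. The same was seen in the 6 C. albicans libraries, at -0.43, with a median of -0.24 in the longest decile. The cause was not tested.

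Each comparison was therefore also made after a smooth trend of each library on gene length, GC content and level had been removed, which brought the correlation with length to -0.03. In that fit 1166 genes rose (10.6%) and 1228 fell (11.2%). Genes that passed in the same direction in all 4 fits (rescaled, deposited, upper-quartile and trend removed) numbered 1518 (13.8%), of which 600 were higher (5.47%) and 918 lower (8.37%). Removing the trend also removes any real difference that follows length, so list counts are given below with and without it. They are to be read beside the shares of all genes given above for the same fit. Single genes are given with rescaled TPM unless stated. With the trend removed some were smaller in size (Ctsd at 0.05 in place of 0.25, Lgals3 at 0.10 in place of 0.32). Others were larger in size (Saa3 at -0.63 in place of -0.45, Cytip at 0.97 in place of 0.87).

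**Figure D2:**
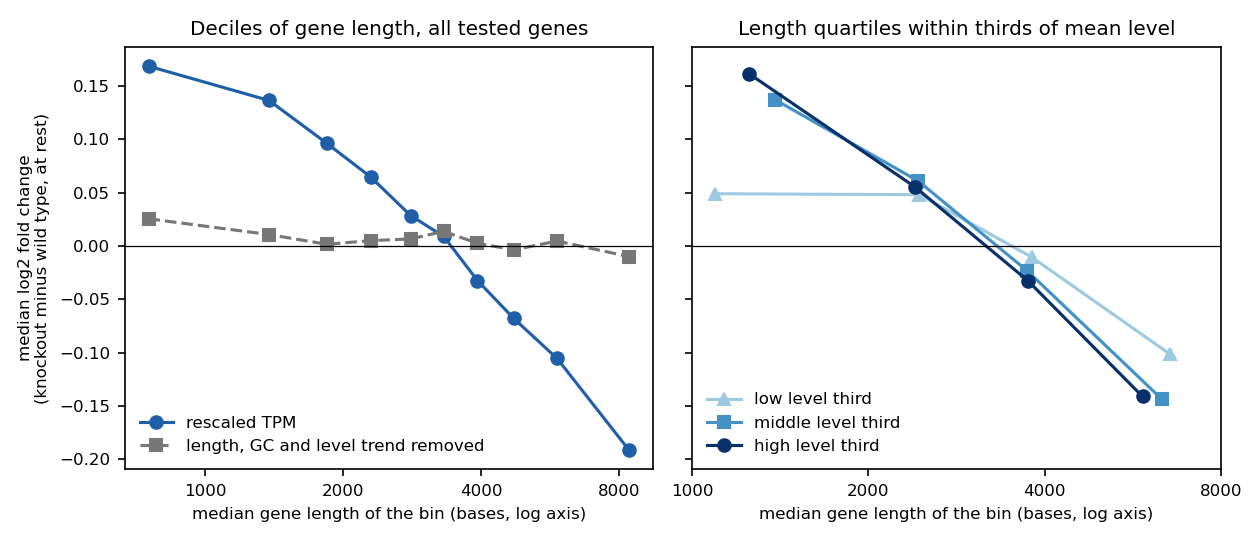
Median log2 fold change at rest (vertical axis) against the median gene length of each bin (log axis), for deciles of all tested genes before and after trend removal (left) and for length quartiles within 3 groups of mean level (right). The median falls from 0.17 in the shortest decile to -0.19 in the longest, and lies between -0.01 and 0.03 in every decile once the trend is removed.

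The 12 largest rises that passed in all 4 fits covered 0.82 to 1.601 on the log2 scale. Cav1 encodes caveolin-1, the main coat protein of caveolae. It stood at 9.25, 9.85 and 9.78 rescaled TPM in wild type and 28.8, 27.5 and 27.7 in the knockout (1.45, SE 0.05, adjusted p = 1.5e-06). The knockout libraries were nearly alike and their mean was 2.91 times the wild-type mean. Its partner Cav2, which forms complexes with caveolin-1, rose from 69.2 ± 4.01 to 107 ± 1.41 (SD, n = 3, log2 fold change 0.62). Of the other tested members of the list of caveolins and cavins, Ehd4, a membrane-shaping ATPase, fell (-0.19, adjusted p = 0.0069), and Pacsin2 was at -0.07 (adjusted p = 0.336).

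Npy, the neuropeptide Y precursor, was the most abundant of the 12 and nearly doubled in every library. It held 489, 504 and 499 in wild type and 951, 1004 and 983 in the knockout (0.98, SE 0.03, adjusted p = 3.9e-07). Gng4, a G protein gamma subunit, went from 11.5 ± 0.625 to 23.7 ± 0.566 (SD, n = 3). The calcium-binding proteins S100a4 and S100a6 lie in the same gene cluster on chromosome 3 and rose together, S100a4 from 268, 247 and 258 to 486, 513 and 508, and S100a6 from 336, 334 and 336 to 605, 643 and 613. Neither pair of groups overlapped, which the rule that named these genes required. Gpx3, a secreted glutathione peroxidase, went from 7.68 ± 0.84 to 15.7 ± 0.749, Lsp1, an actin-binding protein of leukocytes, from 6.82 ± 0.859 to 14 ± 0.337, and Cytip, a partner of cytohesins that modulates integrin adhesion, from 11.9 ± 0.854 to 22.6 ± 1.36 (SD, n = 3). The low genes AA467197, Cks2 (a partner of cyclin-dependent kinases) and Rpph1 (the RNA of ribonuclease P) completed the 12. Rpph1 is 325 bases long and is not polyadenylated as a rule, and its 3 knockout values spread from 5.39 to 8.23 over wild-type values of 1.41 to 2.36.

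The 12 largest falls covered -0.92 to -1.32 and included Piezo1 and Lyz2. Mid1, a ubiquitin ligase that binds microtubules, was at 27.6, 26.7 and 29.8 in wild type and 10.4, 10.4 and 11.1 in the knockout (-1.32, SE 0.06, adjusted p = 4e-06). Erdr1, a secreted factor whose gene lies beside Mid1 on chromosome X, was at 243, 249.7 and 294 against 122, 126 and 137 (-1.02, adjusted p = 4.4e-05). The wild-type values of Erdr1 were the more spread. G530011O06Rik, in the same stretch and chosen after its values were seen, had a log2 fold change of -0.62. These genes lie at and near the pseudoautosomal boundary, where copies can be collapsed in the assembly, so their levels are uncertain.

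Cbl, a ubiquitin ligase that marks receptors and kinases for degradation, was at 63.9, 67.5 and 62.9 in wild type and 27.0, 23.0 and 28.3 in the knockout (-1.28, SE 0.07, adjusted p = 1.5e-05). Cadm1, a cell adhesion molecule of the immunoglobulin family, was at 44.9, 44.7 and 44.4 against 18.9, 17.6 and 17.9 (-1.26, SE 0.05, adjusted p = 1.5e-06). Their knockout means were 40.3% and 40.6% of wild type, and the spread within groups was a small part of the difference. Lnpep, an aminopeptidase of endosomes, went from 34.1 ± 2.77 to 16.3 ± 2.35, and Zbed6, a transcription factor whose gene lies inside another (Zc3h11a), so that reads of both cannot be told apart, from 9.39 ± 0.86 to 3.90 ± 0.543 (SD, n = 3). The others were low: Ghrl (the ghrelin precursor) went from 10.9 ± 0.841 to 4.64 ± 0.629, Vasn (a membrane protein that binds TGF-beta) from 10.8 ± 0.297 to 5.31 ± 1.11, Tmem176b from 5.12 ± 0.956 to 2.04 ± 0.326 and Adgb (androglobin) from 5.09 ± 0.162 to 2.20 ± 0.541 (SD, n = 3).

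Genes of the antioxidant response rose, and none of the list fell with rescaled TPM, while 3 fell with the TPM as deposited. NRF2, encoded by Nfe2l2, is a transcription factor that is held back by Keap1 and switches on enzymes of glutathione and NADPH supply through antioxidant response elements. Of 32 tested members 22 rose and 0 fell, against 15.3% and 14.5% of all genes, with a median of 0.25. After trend removal 20 rose and 0 fell, with a median of 0.15, and with the deposited TPM 16 rose and 3 fell. With upper-quartile factors 22 rose and 1 fell. Esd, an esterase that completes formaldehyde detoxification with glutathione, rose from 281, 271 and 278 to 424, 449 and 427 (0.65, SE 0.03, adjusted p = 6e-06). Gstm1, a glutathione transferase, rose from 161, 158 and 152 to 238, 242 and 224 (0.58, adjusted p = 3.5e-05). The knockout libraries were above every wild-type library in both. Taldo1, of the pentose phosphate pathway, rose by 0.45, the ferritin light chain Ftl1 by 0.43 and heme oxygenase Hmox1 by 0.39 (adjusted p = 8.2e-05, 2.6e-05 and 0.00012). Nfe2l2 itself was at -0.08 (adjusted p = 0.079) and Keap1 at -0.12 (adjusted p = 0.139). Other fits moved both past the threshold. Nfe2l2 was lower with the deposited TPM (-0.176, adjusted p = 0.00239) and with upper-quartile factors (-0.094, adjusted p = 0.0457). Keap1 was lower with the deposited TPM (-0.218, adjusted p = 0.0156) and with limma-voom on recovered reads (-0.135, adjusted p = 0.0435).

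Promoters of this list were searched for the core of the antioxidant response element, TGACNNNGC, on both strands, in the RefSeq promoter table of GRCm38.p6 (250 bases before to 50 after the start). The table held 27 of the 32 tested members, and 10 of them had a match. A match was found in 17.2% of all 8759 tested genes with an entry and in 12.4% of the 32851 promoters of the whole table, and in 17.3% of the 1362 that rose. Of the 20 list members in the table that rose, 7 had a match. The promoters below belong to the 3 members with the smallest p among those that had a match and rose in all 4 fits, a choice made after their values were seen. Capitals mark the match.
Prdx1, chr4:116685349-116685648, plus strand: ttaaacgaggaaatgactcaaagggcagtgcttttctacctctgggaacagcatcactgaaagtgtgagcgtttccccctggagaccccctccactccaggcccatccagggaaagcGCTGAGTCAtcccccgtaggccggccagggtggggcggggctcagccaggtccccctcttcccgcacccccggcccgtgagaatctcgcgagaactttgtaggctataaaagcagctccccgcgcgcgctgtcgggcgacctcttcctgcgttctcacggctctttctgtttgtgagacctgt
Mgst1, chr6:138140277-138140576, plus strand: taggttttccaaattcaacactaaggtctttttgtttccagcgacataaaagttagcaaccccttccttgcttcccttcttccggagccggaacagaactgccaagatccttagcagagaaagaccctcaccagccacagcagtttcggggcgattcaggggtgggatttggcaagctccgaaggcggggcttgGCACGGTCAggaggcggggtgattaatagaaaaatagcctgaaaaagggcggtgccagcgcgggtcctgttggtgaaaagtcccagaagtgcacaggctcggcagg
Srxn1, chr2:152105274-152105573, plus strand: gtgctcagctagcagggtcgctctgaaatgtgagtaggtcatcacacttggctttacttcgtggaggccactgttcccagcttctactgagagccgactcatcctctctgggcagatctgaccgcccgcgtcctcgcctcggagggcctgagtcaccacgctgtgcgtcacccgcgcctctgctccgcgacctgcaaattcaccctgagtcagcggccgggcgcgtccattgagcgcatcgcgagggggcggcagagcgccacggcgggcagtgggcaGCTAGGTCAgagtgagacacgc
Each match is on the opposite strand, and it begins 133 bases before the start in Prdx1, 56 before it in Mgst1 and at base 29 after it in Srxn1. Prdx1, a peroxide-reducing enzyme, rose from 1114 ± 37.4 to 1423 ± 52.4, Mgst1, a membrane glutathione transferase, from 114 ± 2.82 to 144 ± 3.93, and Srxn1, which repairs oxidised peroxiredoxins, from 146 ± 3.19 to 171 ± 1.76 (SD, n = 3). A match of these letters is a description of the window and does not show binding.

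Many short genes of energy supply and protein turnover rose, and fewer of them passed once the length trend was removed. Of 73 nuclear oxidative phosphorylation subunits 55 rose and 1 fell (median 0.21, median length 873 bases), and 21 rose and 2 fell with the trend removed. Of 76 cytosolic ribosomal proteins 65 rose and 1 fell (0.22), against 27 and 8 with the trend removed. Of 77 mitochondrial ribosomal proteins 41 rose and 0 fell (0.18), against 16 and 2, and of 31 proteasome subunits 21 rose and 0 fell (0.15), against 4 and 1, a share of higher members close to the 10.6% of all genes in that fit. With the TPM as deposited these 4 lists had 30, 47, 9 and 6 higher members and 1 lower member each. Members that rose in all 4 fits included Cox7c and Ndufa4 of the respiratory chain (0.36 and 0.27), Rpl41 and Rps24 of the ribosome (0.39 and 0.36), Mrps28 of the mitochondrial ribosome (0.53) and the proteasome subunits Psmd8 and Psma7 (0.22 and 0.32). The glycolytic enzymes and hypoxia-inducible genes had 12 higher and 3 lower of 23 (10 and 2 with the trend removed), with Aldoa, an aldolase, at 0.39 and Pgk1 at 0.32, while Pfkfb3, the kinase that makes the activator of glycolysis, fell by 0.51 on the log2 scale.

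Lysosomal and lipid genes were mixed. Of 34 lysosomal enzymes and membrane proteins 17 rose and 4 fell (12 and 8 with the trend removed, 8 and 7 with the TPM as deposited). The cathepsins Ctsl and Ctsd rose by 0.34 and 0.25 while cathepsin Ctsc fell by 0.49. Of 18 subunits of the lysosomal proton pump 10 rose and 0 fell, which became 3 and 3 with the trend removed and 3 and 4 with the TPM as deposited, and Atp6v0d1 (0.23) rose in all 4 fits. Among 22 genes of lipid efflux and fatty acid handling 6 rose and 4 fell (5 and 4 with the trend removed, 3 and 5 with the TPM as deposited). Lpl, the lipase that releases fatty acids from lipoproteins, rose from 238 ± 9.12 to 361 ± 7.79 (SD, n = 3), and the scavenger receptor Cd36 rose by 0.33, while the cholesterol exporter Abca1 fell by 0.45. Of 17 iron handling genes 6 rose and 3 fell (5 and 2 with the trend removed, 5 and 6 with the TPM as deposited), and the heme transporter Slc48a1 was among those that rose (0.37).

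Genes by which macrophages are recognised changed in both directions. Of 27 macrophage identity genes 8 rose and 12 fell, and 8 rose and 17 fell with the trend removed (median 0.00 and -0.13). Itgam encodes CD11b, the integrin chain that, with F4/80, the labels name as present on all cells by flow cytometry. It held 129.6, 128 and 128 rescaled TPM in wild type and 78.7, 77.9 and 79.9 in the knockout (-0.70, SE 0.03, adjusted p = 4e-06). Mrc1, the mannose receptor, was at 140.0, 134 and 126 against 90.1, 87.7 and 87.6 (-0.59, adjusted p = 5.2e-05). In both the lowest wild-type library stood well above the highest knockout library. Cd68, a lysosomal membrane glycoprotein, rose from 2351 ± 10.8 to 3120 ± 11 (SD, n = 3), and Lgals3, which encodes galectin-3, rose by 0.32. Of the secreted antimicrobial proteins Cst3 (cystatin C) rose by 0.46 and the acute phase protein Saa3 fell by 0.45. In MHC class I presentation 5 of 14 rose, led by H2-D1 (0.38), which became 1 higher and 4 lower with the trend removed and 3 and 6 with the TPM as deposited, and in MHC class II 1 of 9 rose, which became 0 higher and 3 lower.

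Receptors and signalling genes that meet fungi were more often lower. Of 24 recognition receptors 5 rose and 10 fell, with a median of -0.12 (4 and 10 with the trend removed). Tlr2, a receptor for microbial lipoproteins and cell walls, fell by 0.40, and Clec4d, a C-type lectin that binds fungal mannans, rose by 0.34 (adjusted p = 0.00029 and 0.00026). C-type lectin signalling had 3 higher and 12 lower of 28 (2 and 11 with the trend removed), Cbl lowest, with the exchange factor Vav1 at -0.30 and the adaptor Tyrobp at 0.30. In the inflammasome list 2 rose and 7 fell of 20 (0 and 7 with the trend removed). Nlrp3, its best known sensor, was at 24.3, 24.1 and 24.3 against 14.9, 16.9 and 15.0 (-0.61, adjusted p = 0.00021), and the sensor Mefv and the cytokine Il18 fell by 0.42 and 0.30. Of 10 genes of the phagocyte oxidase 3 rose and 2 fell, which became 3 and 5 with the trend removed and 0 and 3 with the TPM as deposited. Cybb, its membrane catalytic subunit, was at 472, 459 and 436 against 307, 294 and 300.2 (-0.60, adjusted p = 1.7e-05), and Ncf1, a cytosolic subunit, fell by 0.13 (adjusted p = 0.00931).

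Interferon-stimulated genes were lower under each scaling tried. Of 39 tested members 3 rose and 16 fell with rescaled TPM, 0 and 20 with the trend removed and 0 and 30 with the deposited TPM, and the median was -0.15 in the first and in the second of these. Ifit2, which blocks translation of viral RNA, was at 83.4, 81.6 and 73.9 against 50.7, 53.2 and 50.2 (-0.62, SE 0.05, adjusted p = 0.0001). Ifit3, Parp14 and the ubiquitin-like Isg15 fell by 0.34, 0.34 and 0.27. Among 21 inflammatory cytokines and chemokines 7 rose and 4 fell, which became 5 and 8 with the trend removed and 6 and 6 with the TPM as deposited. The chemokines Cxcl10 and Ccl6 fell by 0.49 and 0.31, and the interleukin-1 receptor antagonist Il1rn rose by 0.20. Feedback genes and targets of NF-kB numbered 24, of which 3 rose (12.5%) and 4 fell (16.7%), near the 15.3% and 14.5% of all genes. With the trend removed 3 rose and 3 fell.

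Genes tied to force, calcium and adhesion changed in both directions, and integrin chains were more often lower. Of 16 tested mechanosensitive and swelling-gated channels 0 rose and 3 fell (1 and 3 with the trend removed). The 3 that fell with rescaled TPM were Piezo1, the potassium channel Kcnk13 (-0.22, adjusted p = 0.00454) and Trpm7 (-0.26, adjusted p = 0.00724). In the list of calcium entry, calcineurin and NFAT 2 rose and 7 fell of 25 (3 and 4 with the trend removed), with the calcium pump Atp2b1 at -0.39, Nfat5 at -0.54 and Nfatc2 at -0.38. Of 13 integrin chains 1 rose and 8 fell (2 and 6 with the trend removed), among them Itgam, Itgal (-0.62) and Itga6 (-0.48), and the 1 that rose was Itgb7 (0.39). Of 40 actin filament and adhesion genes 13 rose and 12 fell (8 and 13 with the trend removed, 8 and 19 with the TPM as deposited), and of 9 targets of YAP, TAZ and MRTF-SRF 1 rose and 3 fell (1 and 1 with the trend removed, 0 and 4 with the TPM as deposited).

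The flow-responsive factor Klf4 rose from 16.1, 14.1 and 16.9 to 26.7, 22.8 and 25.8 (0.65, SE 0.08, adjusted p = 0.00063), and Klf2 rose from 5.08 ± 0.458 to 7.88 ± 0.486 (SD, n = 3). Both are transcription factors that laminar flow induces in endothelium. Klf3 fell by 0.34 and Txnip, an inhibitor of thioredoxin, by 0.39. Of 13 members of that list 2 rose (15.4%) and 2 fell (15.4%), near the 15.3% and 14.5% of all genes. With the trend removed 4 rose and 2 fell. Of 27 early response factors and MAP kinase phosphatases 12 rose and 4 fell (8 and 4 with the trend removed, 7 and 7 with the TPM as deposited), with Fos at 0.54, the phosphatase Dusp1 at 0.27 and Jun at -0.25.

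Cell cycle genes were more often lower than higher in the knockout. Of 33 tested 5 rose and 10 fell, with a median of -0.16 (5 and 9 with the trend removed). Mki67, a mark of dividing cells, went from 3.54 ± 0.315 to 1.79 ± 0.109, and cyclin D1 (Ccnd1) fell by 0.52 on the log2 scale. The replication clamp Pcna and the centromere histone Cenpa rose, by 0.37 and 0.68. Of 20 ubiquitin ligases of the Cbl, Nedd4 and Trim-like families 2 rose and 10 fell (4 and 6 with the trend removed), with Rnf213 at -0.64 and Rnf128 at 0.48. Of 19 matrix, urokinase and metalloproteinase genes 7 rose and 7 fell (6 and 6 with the trend removed), among them the proteases Mmp14 (-0.62) and Adam17 (-0.34) and the cytokine osteopontin, Spp1 (0.37). Ribosomal, proteasome, ferritin, glutathione transferase, Ifit, H2 and histone genes have near-identical copies or pseudogenes that can share reads, so single members are uncertain. Of 10 lysozyme and antimicrobial genes 3 rose and 3 fell with rescaled TPM, with the trend removed and with the TPM as deposited. Of 31 neuropeptide and G protein genes 9 rose and 6 fell (6 and 5 with the trend removed, 6 and 10 with the TPM as deposited). Of 21 cholesterol genes 3 rose and 1 fell (2 and 1 in either other fit). Of 31 ATF4 and heat shock genes 8 rose and 2 fell (4 and 6 with the trend removed, 0 and 7 with the TPM as deposited). Of 7 histone genes 3 rose and 0 fell (0 and 1 with the trend removed, 0 and 0 with the TPM as deposited). Of 301 zinc finger genes named Zfp 15 rose (4.98%) and 23 fell (7.64%), below the 15.3% and 14.5% of all genes. These counts became 19 and 12 with the trend removed and 4 and 54 with the TPM as deposited, where 27% of all genes fell. The share that passed with rescaled TPM also moved with level. In the lowest of 3 equal groups by level 5.2% of genes rose and 10.1% fell, against 30.3% and 15.9% in the highest. The Zfp genes were not compared with genes of like level, so their low shares are not a result about the family.

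**Figure D3:**
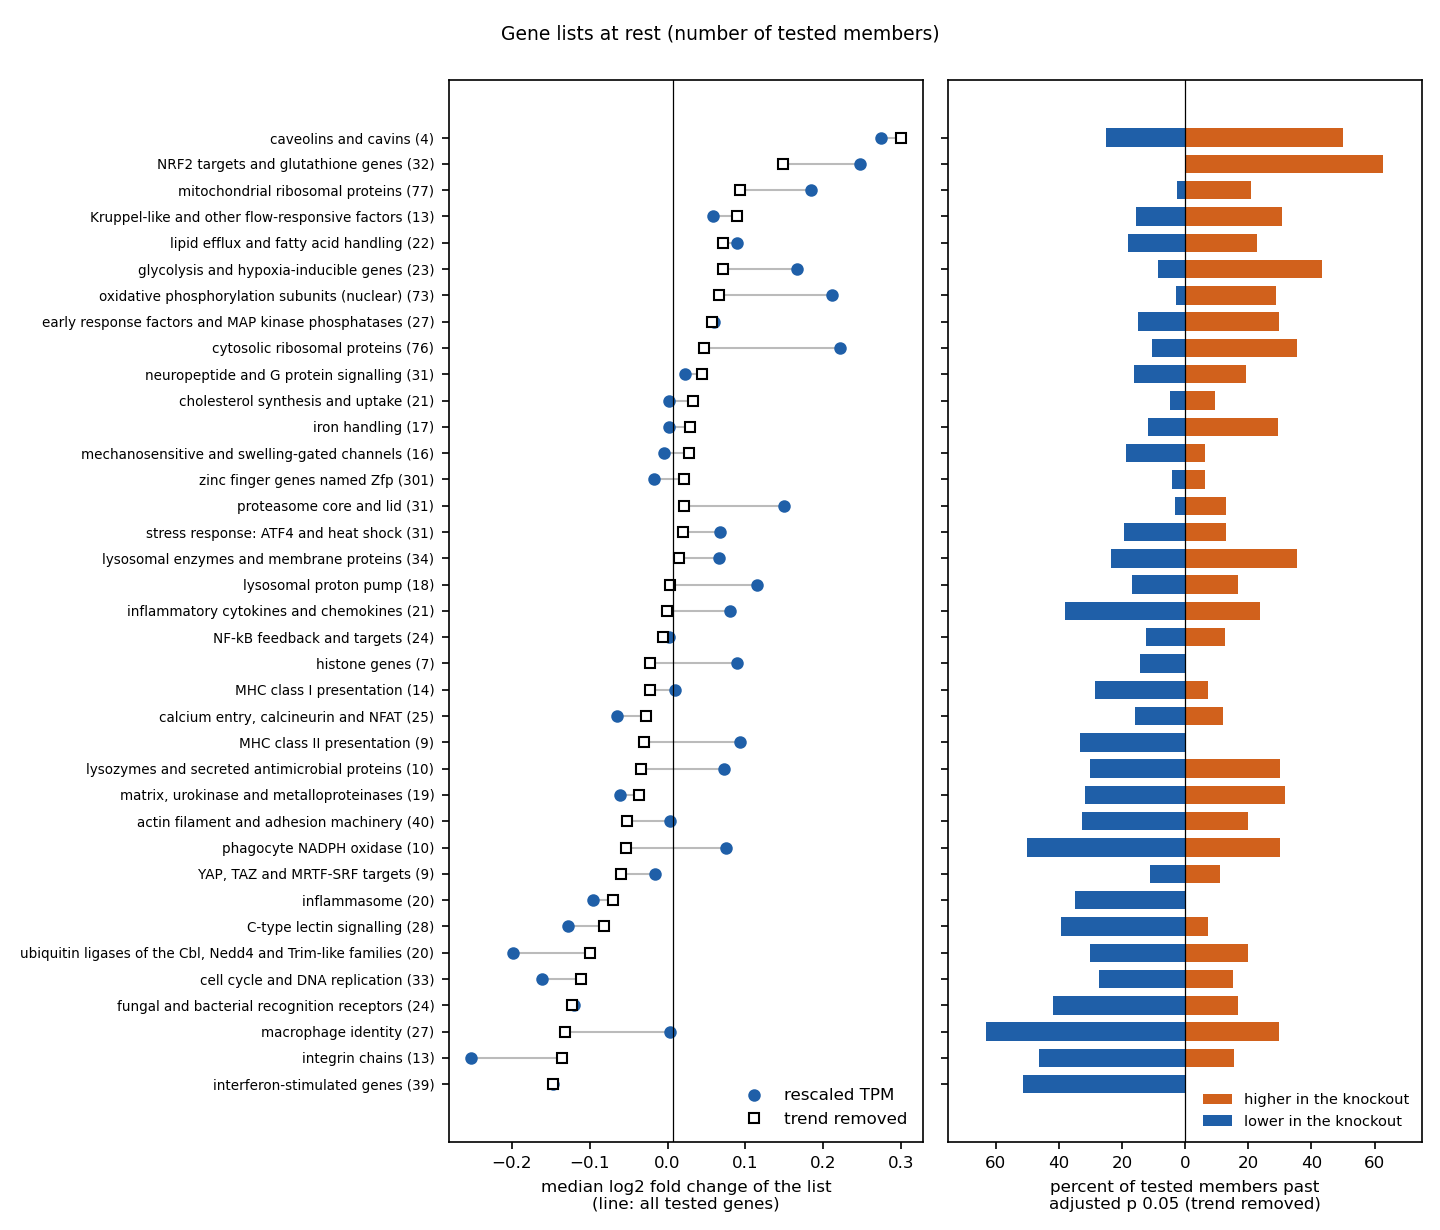
Median log2 fold change at rest of the tested members of each list before and after trend removal (left), and the percent of members past adjusted p 0.05 in each direction with the trend removed (right); the line on the left is the median of all tested genes. The NRF2 list holds 20 higher and 0 lower members of 32, and the interferon list 0 higher and 20 lower of 39.

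The same comparison in the 6 libraries with C. albicans shares no library with the one at rest. There 1937 genes were higher (17.7%) and 2174 lower (19.8%). Of the 1675 genes that rose at rest 733 (43.8%) also rose with the fungus, 105 (6.27%) fell and 837 did not pass. Of the 1586 that fell at rest 917 (57.8%) also fell, 74 (4.67%) rose and 595 did not pass. Short genes were higher in both comparisons, and how much of the overlap moves with length was not tested. Among the 122 rises of at least 0.5, 28 rose and 17 fell with the fungus, and the median went from 0.62 to 0.12. Among the 199 such falls, 113 fell and 2 rose, and the median went from -0.64 to -0.47. The difference between the treatments was tested over all 12 libraries and passed in 1612 genes (14.7%), in 56 of the 122 rises and in 62 of the 199 falls. These genes were picked by their effect at rest, which enters the difference, so a smaller value with the fungus is favoured by that choice. The first wild-type library with C. albicans lay apart from the other 2 (root mean square log2 difference 0.277 to 0.280, against 0.203 to 0.244 for all other pairs within a group), and without it 67 of the rises and 74 of the falls passed that test, of 2468 genes in all.

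Most of the largest rises at rest did not pass in the same direction with the fungus. Of the 12, 3 rose there (Lyz1, Gng4 and Cytip), 3 fell (Cav1, AA467197 and Lsp1) and 6 did not pass, and the difference passed in 10. Of the 12 largest falls 9 also fell, 2 rose (Cadm1 and Erdr1) and 1 did not pass (Tmem176b), and the difference passed in 5. Cav1 in wild type was at 9.63 ± 0.328 with PBS and 46.1 ± 12.8 with C. albicans, and in the knockout at 28.0 ± 0.73 and 25.9 ± 0.355 (SD, n = 3). S100a6 was at 335 ± 1.22 and 644 ± 22.3 in wild type and at 620.2 ± 19.9 and 653 ± 12.4 in the knockout. Npy was at 497 ± 7.92 and 926 ± 89.5 against 979.7 ± 26.8 and 959.9 ± 15.9. In these 3 genes the knockout stood near the same level in both treatments while the wild type was lower at rest. Cadm1 was the mirror image, at 44.7 ± 0.274 and 17.2 ± 0.641 in wild type and 18.1 ± 0.674 and 20.04 ± 1.39 in the knockout. Mrc1 was at 134 ± 6.79 and 88.8 ± 4.39 against 88.5 ± 1.39 and 91.1 ± 2.68. The knockout effect at rest and the response of the wild type share the 3 wild-type PBS libraries, so these levels are set side by side only. Cbl was at 64.8 ± 2.46 and 85.1 ± 4.98 in wild type and 26.1 ± 2.78 and 31.9 ± 1.05 in the knockout, lower in the knockout in both treatments.

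**Figure D4:**
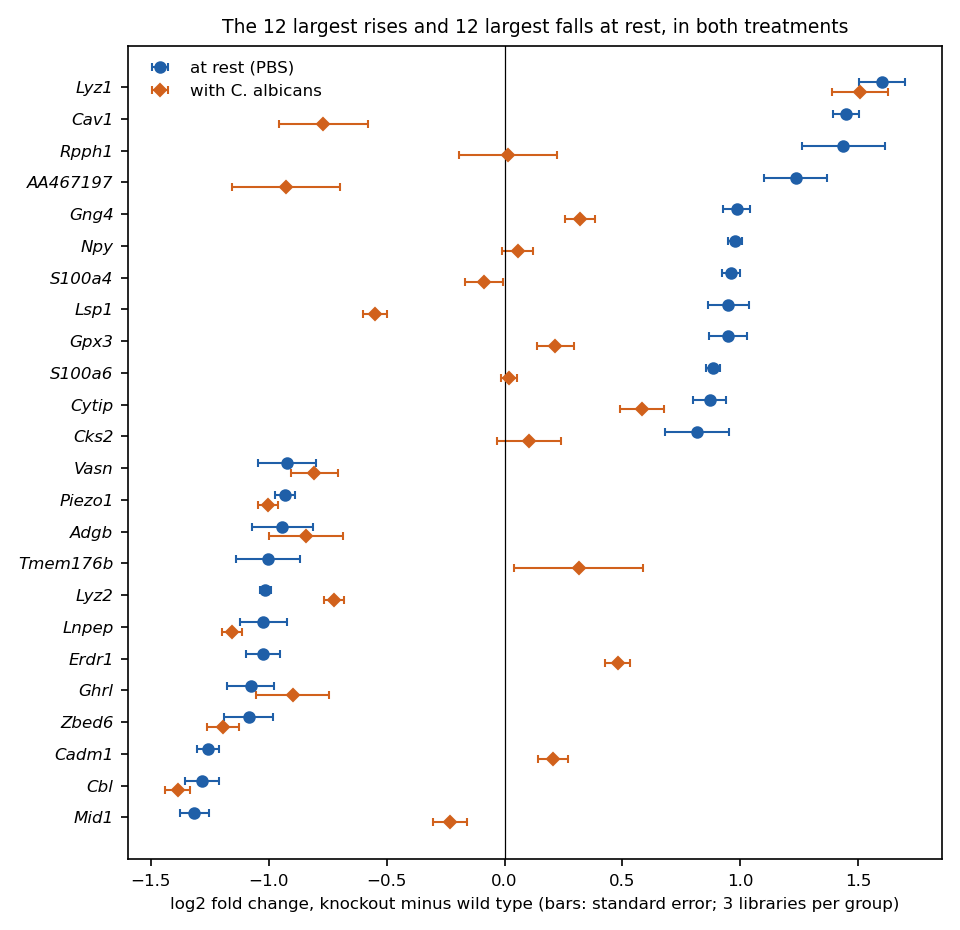
Log2 fold change of knockout over wild type with its standard error (horizontal axis) for the 12 largest rises and the 12 largest falls at rest, in PBS and in C. albicans libraries (3 per group). With the fungus 3 of the 12 rises and 9 of the 12 falls passed in the same direction.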

How the data were processed

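RNA of 12 libraries (3 per group) was sequenced, and the 6 PBS libraries were compared here. The TPM values per gene and library were made and deposited by the authors, each library summing to 1000000. The mean signal per gene over all libraries (reads divided by size factors) is also theirs, per the file headers. CASAVA 1.8, cutadapt 2.6, STAR 2.7.5a and DESeq2 1.34.0 on build mm10 are named, without their roles, per the submitters' processing notes. Those notes as used here do not name the counting tool or its strand setting. Both columns together gave back whole reads (100.0% of 171648 nonzero values within 0.01), from which the reads per library were summed. Rows lacking a gene symbol (28) took 0.00132% of reads. Of the gene IDs, 25180 matched the RefSeq table of GRCm38.p6.

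TPM was multiplied by median-ratio factors over the 12 libraries and tested as log2(level + 1) with limma 3.58.1 (R 4.3.3, variance trend on, no covariates, two-sided, Benjamini-Hochberg over 10972 genes). The C. albicans comparison and the difference between treatments were fitted in the same way, and the scripts were tested on simulated data. In the trend-removed fit, splines (4 degrees of freedom) on log length, GC content and level were subtracted from each library. GC content was known for 95.8% of the tested genes. The alternatives were other scalings, pseudocounts, filters and variance settings, all 12 libraries in 1 fit, a replicate block, each library left out, and limma-voom on the recovered reads, the last chosen after seeing the data.

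Named genes were Piezo1, the 12 largest rises and 12 largest falls that passed in 4 fits without overlap between groups (mean of at least 5 in the higher group, length of at least 300 bases), and from every list the 4 tested genes of smallest p. Zfp469, Rab3ip, G530011O06Rik, Prdx1, Mgst1, Srxn1, Nfe2l2 and Keap1 were chosen after their values were seen. The comparison, the members and the 38 lists were chosen with earlier results of these data known, so a list's count is a description and not independent support. The list of mitochondrially encoded genes had no tested member. A gene that the rule names is not reported here.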

Additional observations from a re-analysis of the deposited data

Results flagged for a closer look

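For 59 of the 105 genes named, the knockout effect with C. albicans differed from that at rest in a test of the difference over all 12 libraries (limma, adjusted p under 0.05), against 14.7% of all tested genes. Most of the 105 were chosen for their effect at rest, which enters the difference, so the larger share is not a result about them. Values are the effect with the fungus minus the effect at rest, on the log2 scale. Each effect has its own 3 knockout and 3 wild-type libraries.

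Among the largest rises at rest the difference was -2.216 for Cav1, -2.161 for AA467197, -1.496 for Lsp1, -1.422 for Rpph1, -1.048 for S100a4, -0.921 for Npy, -0.865 for S100a6, -0.732 for Gpx3, -0.714 for Cks2 and -0.665 for Gng4. All 10 are below 0, a sign that the choice of these genes by their rise at rest favours. Cks2 no longer passed without wild-type C. albicans replicate 1 (adjusted p = 0.054). Among the largest falls it was 1.503 for Erdr1, 1.461 for Cadm1, 1.318 for Tmem176b, 1.085 for Mid1 and 0.292 for Lyz2, all above 0, which their choice as falls favours in the same way. Their neighbours gave 0.761 for G530011O06Rik and -0.56 for Rab3ip.

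Genes of membrane, flow response and early response gave -0.951 for Cav2, 0.395 for Ehd4, -0.751 for Klf4, -0.639 for Klf2, -0.956 for Fos and -0.797 for Dusp1. Antioxidant genes gave -1.108 for Hmox1, -0.863 for Esd, -0.628 for Srxn1, -0.53 for Prdx1, -0.305 for Taldo1, -0.21 for Gstm1, -0.181 for Nfe2l2, -0.16 for Mgst1 and -0.158 for Ftl1. The knockout effect of Hmox1, which breaks down heme, went from 0.386 at rest to -0.722 with the fungus.

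Surface, secreted and identity genes gave 0.804 for Saa3, 0.625 for Mrc1, 0.414 for Itgam, -0.205 for Cst3, -0.156 for Lgals3, -0.145 for Cd68 and -0.387 for Spp1. Genes of recognition and inflammation gave -0.913 for Cxcl10, -0.763 for Il1rn, -0.567 for Clec4d, -0.487 for Nlrp3, -0.467 for Tlr2, -0.395 for Mefv, -0.394 for Parp14 and 0.503 for Ccl6. In Nlrp3, Tlr2, Mefv, Parp14 and Cxcl10 the knockout was lower at rest and further below wild type with the fungus.

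Metabolic, lysosomal, ribosomal and cycle genes gave -0.821 for Lpl, -0.445 for Cd36, 0.226 for Pfkfb3, 0.272 for Ctsc, 0.151 for Ctsd, -0.148 for Atp6v0d1, -0.265 for Rps24, -0.414 for Mrps28, -0.201 for Psmd8, -0.254 for Psma7, -0.412 for Pcna and -0.529 for Rnf128. With the trend on length, GC and level removed, the difference no longer passed for Cks2 (adjusted p = 0.076), Cd68 (0.12), Parp14 (0.069), Mgst1 (0.5) and Nfe2l2 (0.35).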

How the results depend on the processing

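At rest (3261 genes, 1675 higher and 1586 lower), the deposited TPM gave 762 higher and 2961 lower, and the replicate block with the trend removed gave 2068, of which 1002 were higher. With C. albicans (4111 genes, 1937 higher and 2174 lower), trend removal gave 2504 (1162 lower), the block with it 1887 (953 higher, 934 lower), and the deposited TPM 1179 higher. The replicate block alone gave 3261 at rest, 3554 with C. albicans and 1530 for the difference between treatments. In the labels, same-numbered libraries of the 2 genotypes have only the number in common. Their deviations correlated at 0.04, 0.047 and 0.102 at rest, each library best with its own number. The other pairs at rest ran from -0.059 to 0.01. With C. albicans the same-numbered pairs were at 0.019, -0.041 and 0.008. Whether the number marks a shared preparation was not tested. Leaving out 1 library gave 2313 to 3386 genes at rest (1190 to 1801 higher, 1106 to 1585 lower), 2882 to 4813 with C. albicans (1280 to 2342 higher, 1602 to 2471 lower) and 1093 to 2468 for the difference (449 to 1062 higher, 644 to 1406 lower). The lowest total at rest came without wild-type PBS replicate 2. The lowest higher count with C. albicans came without knockout C. albicans replicate 1, and the highest difference count without wild-type C. albicans replicate 1. limma-voom on recovered reads gave 3779 at rest (1761 higher, 2018 lower). None of the 105 named genes reversed, and leaving out 1 library ended none of their calls. Adjusted p left the threshold for Zfp469 with the trend removed (0.0576), for Trpm7 (0.0501), Nfatc2 (0.0819) and Zfp469 (0.0862) with the block and the trend removed, and for Hmox1 (0.139), Srxn1 (0.135), Isg15 (0.0891), Ncf1 (0.0797) and Ifit3 (0.0624) with all 12 libraries in the fit. Ncf1 also left it with the variance trend off (0.0548). Named genes that passed only in an alternative were Nfe2l2 and Keap1, as given above, and Pacsin2 with the deposited TPM (0.0357). Of 76 list counts, 38 moved by over 1.5 times with the deposited TPM and 32 with the trend removed. The causes were not tested. With 3 libraries a group and 4 residual degrees of freedom, small differences of low genes could be missed.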
